A study of Rattus norvegicus with 9 samples.

Results

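The 9 genes described here belong to the hypoxia-inducible factor (HIF) pathway of rat liver: the factor subunits Hif1a and Epas1, the prolyl hydroxylases Egln1 and Egln3, and the target genes Vegfa, Adm, Bnip3, Ndrg1 and P4ha1. They were taken by name, as rows of the deposited array table whose annotation gives exactly 1 gene symbol equal to the member. The list itself was drawn up with earlier results of these data known. All 9 were found, each on 1 transcript cluster (the unit of the array that stands for a transcribed locus), among 22093 genes with a symbol of their own. The array holds 68842 clusters without its control probe sets. The study used young male Wistar rats and asked how a week of Cγ (gamma conglutin, a seed protein of Lupinus albus) with lupanine (an alkaloid of the same plant) changes liver expression in experimental type 2 diabetes (T2D). The healthy control rats were not diabetic and received only the saline vehicle. The T2D control rats were made diabetic with a high-fat diet and streptozotocin, a toxin of pancreatic beta cells, and also received only vehicle. The rats of the T2D treated group had the same induction and received 28 mg/kg Cγ and 20 mg/kg lupanine in saline by daily oral gavage for 7 days. Each group has 3 arrays, and each array read a pool of liver RNA from 3 animals.

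HIF is a dimer of an oxygen-sensitive alpha subunit, encoded by Hif1a or by Epas1 (which encodes HIF-2 alpha), and a stable partner encoded by Arnt. With oxygen present, the EGLN enzymes hydroxylate the alpha subunit, and the VHL ubiquitin ligase then marks it for degradation. Under low oxygen the alpha subunit persists and the dimer switches on genes for glycolysis, blood vessel growth, mitophagy and collagen processing, Egln3 among them. In the liver oxygen falls along the path of blood through the lobule, and most HIF control acts on the protein, which an RNA array does not read. A bulk liver sample mixes cell types, so more cells of a type and more RNA per cell cannot be told apart in any difference given here.

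The deposited values are log2 signals of the authors' RMA summary, and on each array 76.6% to 76.9% of all clusters were under 5, close to background. Alb and the other hepatocyte markers averaged 10.5 to 10.7 log2 on every array, as liver should. The background probes of the array averaged 3.52 log2 in healthy control, 2.82 in T2D control and 2.89 in T2D treated pools. Healthy livers were lysed in Buffer RLT and T2D livers in Trizol, so the lysis reagent, the diet, streptozotocin and diabetes cannot be told apart in any comparison with healthy livers. Pools are biological replicates in the labels, but the methods also name technical ones. If the arrays of a group read shared RNA, each p-value covers only the spread of the procedure, and in either case not that between single rats.

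T2D control pool 4 stood apart from its group. Over the 16024 clusters whose mean over the arrays reached 5 log2, its median absolute difference to treated pool 3 was 0.0691 log2, below the 0.0891 and 0.0875 to its own pools 5 and 6, while treated pools 1 and 2 were slightly farther, at 0.0951 and 0.0916. Its Pearson r across clusters (which are not replicates, and which differ widely in level) was 0.9926 and 0.9933 with pools 5 and 6 and 0.9931 to 0.9945 with the treated pools, while pools 5 and 6 had 0.9964 with each other. Pool 4 was the lowest T2D control pool in 9 of 9 members, and in 43.1% of the 16024 clusters. Pool 4 and treated pool 1 hold the same value to the last digit in 4 members, Hif1a, Epas1, Egln1 and Vegfa. Over the 16024 clusters these pools hold the same value in 8.46%. In 42.4% of the 16024 clusters at least 2 arrays share the median value of all arrays. The label of pool 4 was kept, and the results below are also given without it. Among the healthy pools, pool 8 lay farthest out, at a median absolute difference of 0.199 and 0.276 log2 from pools 7 and 9, which differed from each other by 0.142.

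Most of the 9 genes were higher in T2D control than in healthy control livers. With limma, 7 rose and 1 fell at a Benjamini-Hochberg adjusted p under 0.05 over all clusters, and Adm was not called. The rises ran from 0.24 log2 in Vegfa to 1.72 in Egln3, and Bnip3 fell by 1.20. Of all clusters 12.4% rose and 22.6% fell in this comparison. Among clusters with a mean of at least 5, which include every member but Adm (mean 4.34), 35.0% rose and 24.2% fell, so a rise was common in this set. Shares of this set, here and below, come from a separate fit of its clusters, adjusted over them alone. The mean is taken over the 9 arrays, most of them T2D, so the set favours clusters that are high in T2D. Egln3 and Ndrg1, with healthy means of 4.58 and 4.89, reach it only through the T2D groups. The median difference of the 9 members was 0.68 log2, beside -0.12 over all clusters and 0.10 over those with a mean of at least 5. At the threshold of the methods (unadjusted p under 0.05 and over 2-fold), Egln3 and Ndrg1 passed as higher and Bnip3 as lower, against 3.35% and 0.784% of all clusters. The pools of both groups did not overlap in 8 of the 9 members, and in 47.7% of all clusters. Without pool 4, 9 of 9 members were called, 8 higher and 1 lower, beside 9.68% of clusters higher and 14.6% lower.

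**Figure D1:**
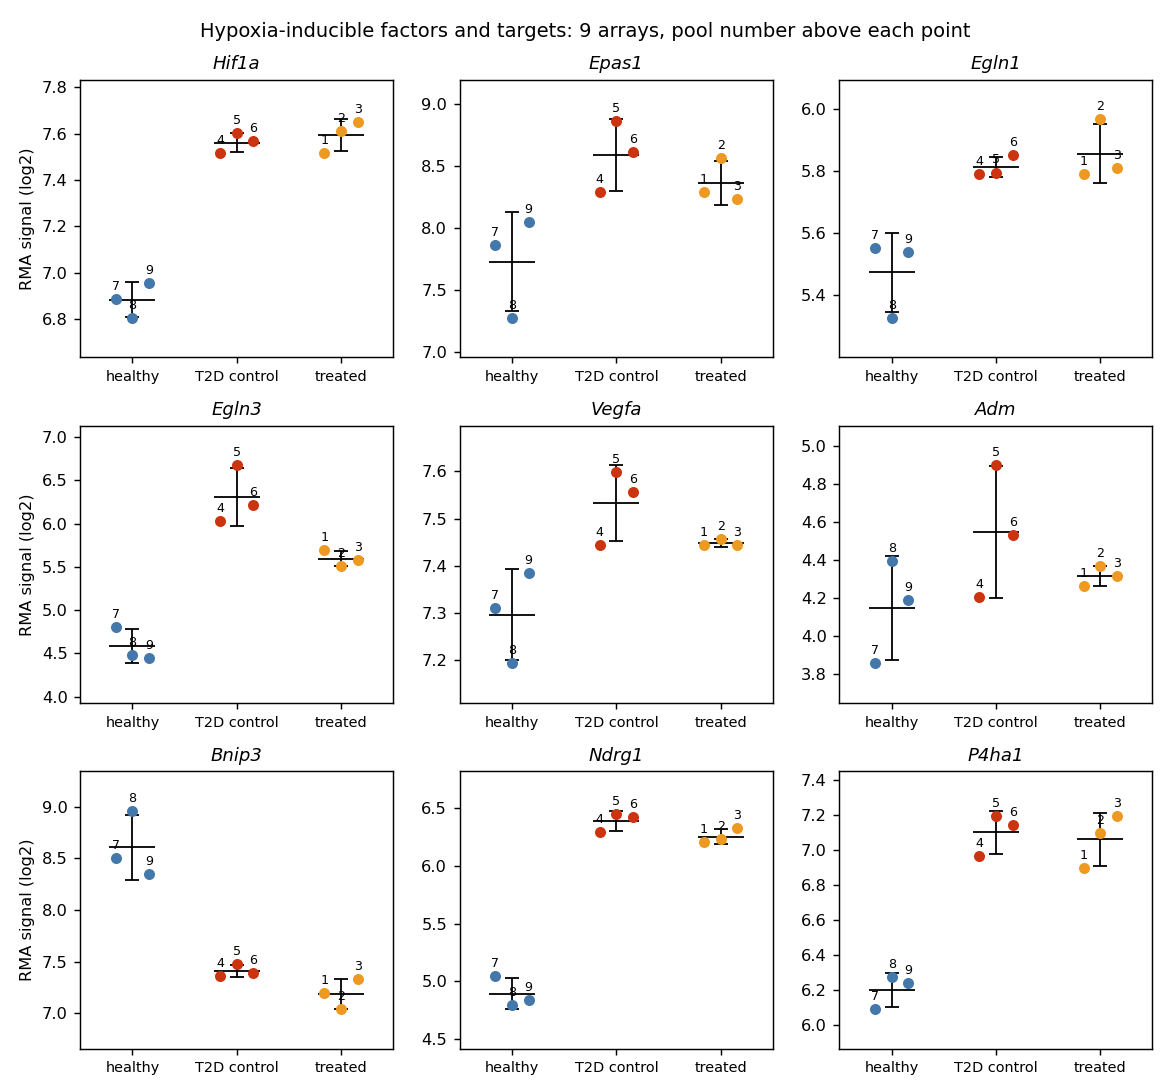
Log2 RMA signal of the 9 genes (vertical axes, which differ in range) in the healthy control, T2D control and T2D treated groups (horizontal axes), with 1 point per pool, its pool number above it, and black bars for the mean ± SD (n = 3 pools). The healthy pools of Egln3, Ndrg1 and P4ha1 lie under all T2D pools and those of Bnip3 above them, while the Adm pools of the 3 groups overlap.

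Both alpha subunits rose. Hif1a gave 6.89, 6.81 and 6.96 log2 in healthy control pools 7, 8 and 9, against 7.52, 7.60 and 7.57 in T2D control pools 4, 5 and 6 and 7.52, 7.61 and 7.65 in treated pools 1, 2 and 3; the order of pools is the same in the sentences that follow. All 6 T2D pools lay above all healthy pools, and the spread inside each group was small. T2D control exceeded healthy control by 0.68 log2 (SE 0.062, 1.60-fold, adjusted p = 0.000227), and by 0.70 without pool 4. Epas1, the alpha subunit known for endothelial cells and for erythropoietin control, gave 7.86, 7.28 and 8.04 in healthy, 8.29, 8.87 and 8.61 in T2D control and 8.29, 8.56 and 8.23 in treated pools. The healthy pools lay below all T2D pools, while the T2D control and treated pools overlapped, and Epas1 spread more than Hif1a in every group, and healthy pool 8 was far below its neighbours. The Epas1 difference was 0.86 log2 (SE 0.21, 1.82-fold, adjusted p = 0.0160). Without healthy pool 8 it was 0.63 (adjusted p = 0.0337), without pool 4 it was 1.01 (adjusted p = 0.0183), and without T2D control pool 5 it was 0.72 and no longer called (adjusted p = 0.0606).

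The oxygen-sensing hydroxylases rose by very different amounts. Egln1, which encodes PHD2, the main HIF hydroxylase in most tissues, gave 5.55, 5.33 and 5.54 in healthy, 5.79, 5.80 and 5.85 in T2D control and 5.79, 5.97 and 5.81 in treated pools. Its healthy pools lay below every T2D pool, by a small margin. T2D control exceeded healthy control by 0.34 log2 (SE 0.078, 1.26-fold, adjusted p = 0.0120), and by 0.35 without pool 4. Egln3, which encodes PHD3 and is itself a HIF target, gave 4.81, 4.48 and 4.45 in healthy, 6.03, 6.68 and 6.21 in T2D control and 5.69, 5.51 and 5.58 in treated pools. The 3 groups did not overlap, with healthy lowest, treated in between and T2D control highest. Its rise of 1.72 log2 (SE 0.16, 3.31-fold, adjusted p = 0.000268) was the largest of the 9, and without pool 4 it was 1.86. The healthy mean of Egln3, 4.58, lies in the range close to background, where the healthy arrays also had the higher background probes, and the part of this in the difference was not tested.

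Of the secreted vascular factors, Vegfa had the smallest difference of the 9 members and Adm was not called. Vegfa, which drives the growth of blood vessels, gave 7.31, 7.19 and 7.38 in healthy, 7.44, 7.60 and 7.56 in T2D control and 7.44, 7.46 and 7.44 in treated pools. The T2D pools lay just above the healthy pools. The T2D control difference was 0.24 log2 (SE 0.067, adjusted p = 0.0263), 0.28 without pool 4 (adjusted p = 0.0297), and 0.08 and not called after quantile normalization (adjusted p = 0.366). Its call was also lost in the fit of only these groups (adjusted p = 0.0749) and without T2D control pool 5 (0.20, adjusted p = 0.0924) or 6 (0.23, adjusted p = 0.0808). Adm, which encodes the vasodilator peptide adrenomedullin, gave 3.86, 4.40 and 4.19 in healthy, 4.21, 4.90 and 4.53 in T2D control and 4.26, 4.37 and 4.32 in treated pools. All 9 values are dim and the groups overlap. Adm differed by 0.40 log2 (95% interval -0.02 to 0.82, adjusted p = 0.117), an interval that includes 0. The Adm difference was called without pool 4 (0.57, adjusted p = 0.0456) and with array weights (0.58, adjusted p = 0.0467).

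Among the targets that act inside the cell, Ndrg1 and P4ha1 rose and Bnip3 fell. Ndrg1, a stress-responsive gene of the N-myc downstream-regulated family, gave 5.04, 4.79 and 4.84 in healthy, 6.29, 6.45 and 6.43 in T2D control and 6.20, 6.23 and 6.33 in treated pools. Every T2D pool was over 1 log2 above every healthy pool. The healthy mean of Ndrg1, 4.89, is just under 5, and the part of the background in its difference was not tested. The T2D control difference was 1.497 log2 (SE 0.081, 2.82-fold, adjusted p = 3.37e-05) and 1.55 without pool 4. P4ha1, a catalytic subunit of the prolyl 4-hydroxylase that stabilises collagen, gave 6.09, 6.27 and 6.24 in healthy, 6.97, 7.20 and 7.14 in T2D control and 6.90, 7.10 and 7.19 in treated pools. The healthy pools again formed a separate low group. The difference was 0.90 log2 (SE 0.097, 1.87-fold, adjusted p = 0.000457) and 0.97 without pool 4. Bnip3, a mitochondrial receptor for mitophagy and a classical HIF-1 target, ran the other way, with 8.51, 8.96 and 8.35 in healthy, 7.36, 7.47 and 7.39 in T2D control and 7.20, 7.04 and 7.33 in treated pools. All healthy pools were above all T2D pools. T2D control was lower by a difference of -1.20 log2 (SE 0.15, 2.30-fold lower, adjusted p = 0.000823), -1.18 without pool 4 and -1.02 without healthy pool 8.

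The start regions of Bnip3, P4ha1 and Egln3 are printed to set this opposite direction beside the letters that HIF binds. They hold the 250 bases before the RefSeq gene start (build GRCr8), 5′ to 3′ on the gene's strand, with capitals for ACGTG and GCGTG, the core of the hypoxia response element, found on either strand (CACGT and CACGC are the same letters on the other strand). ACGTG also lies within the E-box CACGTG. The Bnip3 window is chr1:203154963-203155212 on the minus strand, with 4 matches. The P4ha1 window is chr20:27844796-27845045 on the plus strand, with 2 matches. The Egln3 window is chr6:77411016-77411265 on the minus strand, with 0 matches.
Bnip3: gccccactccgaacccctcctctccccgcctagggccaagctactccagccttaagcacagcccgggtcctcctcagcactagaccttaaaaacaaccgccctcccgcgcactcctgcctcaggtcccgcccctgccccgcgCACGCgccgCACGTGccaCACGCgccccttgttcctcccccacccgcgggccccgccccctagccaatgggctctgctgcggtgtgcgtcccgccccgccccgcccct
P4ha1: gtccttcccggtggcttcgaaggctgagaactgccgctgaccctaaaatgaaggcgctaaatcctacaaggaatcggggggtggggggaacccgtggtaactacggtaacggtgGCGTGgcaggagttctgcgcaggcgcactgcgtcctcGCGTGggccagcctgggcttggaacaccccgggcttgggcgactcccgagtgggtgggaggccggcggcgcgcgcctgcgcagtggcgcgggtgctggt
Egln3: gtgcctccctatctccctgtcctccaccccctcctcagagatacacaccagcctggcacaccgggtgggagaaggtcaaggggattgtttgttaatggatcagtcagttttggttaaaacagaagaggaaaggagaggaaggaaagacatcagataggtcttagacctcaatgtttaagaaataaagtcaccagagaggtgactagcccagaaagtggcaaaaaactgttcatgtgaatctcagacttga
The capitals of Bnip3 hold 2 CACGC on their own and 2 matches inside 1 CACGTG. Both P4ha1 matches are GCGTG. Of the 8 members with a start region in the table, 4 hold a match, namely Hif1a (3), Egln1 (1), Bnip3 and P4ha1, and Epas1, Egln3, Vegfa and Adm hold none in this window. Ndrg1 has no row. Over 27457 genes with such a region 39.6% hold at least 1 match, and 6.99% hold 3 or more. A match is not a measured binding site, and no match says only that these letters are not in the window.

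None of the 9 genes passed the adjusted threshold between T2D treated and T2D control livers, the comparison that asks what Cγ + lupanine changed. With limma 0 of 9 members were called, beside 0.0668% of all clusters and 0.00624% of those with a mean of at least 5. An unadjusted p under 0.05 was reached by 1 member, Egln3, and by 5.13% of all clusters, and 0 members passed the threshold of the methods, which 0.244% of clusters did. The median difference of the members was -0.14 log2, beside -0.0047 over all clusters. The treated and T2D control pools did not overlap in 2 members, Egln3 and Bnip3, and in 14.3% of all clusters. Without pool 4, 0 of 9 members were called, beside 0.247% of clusters.

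Egln3 had the largest treatment difference of the 9. Its treated pools, at 5.51 to 5.69, lay under its T2D control pools, at 6.03 to 6.68. The difference was -0.71 log2 (SE 0.16, 95% interval -1.09 to -0.33, 1.63-fold lower), with an adjusted p of 0.322 by limma. It was -0.85 without pool 4 (adjusted p = 0.135) and -0.52 without pool 5, the highest T2D control pool (adjusted p = 0.590). Over all 17 alternatives the adjusted p ran from 0.0769, with array weights, to 0.822, and the sign was the same in each. The treated level was still 1.02 log2 above healthy control, so that Egln3 was ordered healthy, treated, T2D control, with only the step from treated to T2D control short of the threshold.

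The other 8 members had smaller treatment differences. The 95% intervals of the treatment difference were -0.11 to 0.17 log2 for Hif1a, -0.14 to 0.22 for Egln1 and -0.26 to 0.18 for P4ha1. For Vegfa the interval was -0.24 to 0.07, and for Ndrg1 -0.32 to 0.05. All of these lie well within 2-fold on these arrays. If the arrays of a group read shared RNA, they cover only the spread of the procedure and do not bound the change between rats. The identical values of pool 4 and treated pool 1 in Hif1a, Egln1 and Vegfa can also make them narrower. For the more variable Epas1 (-0.71 to 0.26), Adm (-0.65 to 0.19) and Bnip3 (-0.55 to 0.12) larger decreases were not resolved. Bnip3, which fell in T2D control, differed by a further -0.22 log2 in the treated pools, short of the threshold. Without pool 4 the differences of these 8 genes lay between -0.40 for Adm and 0.03 for Egln1.

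**Figure D2:**
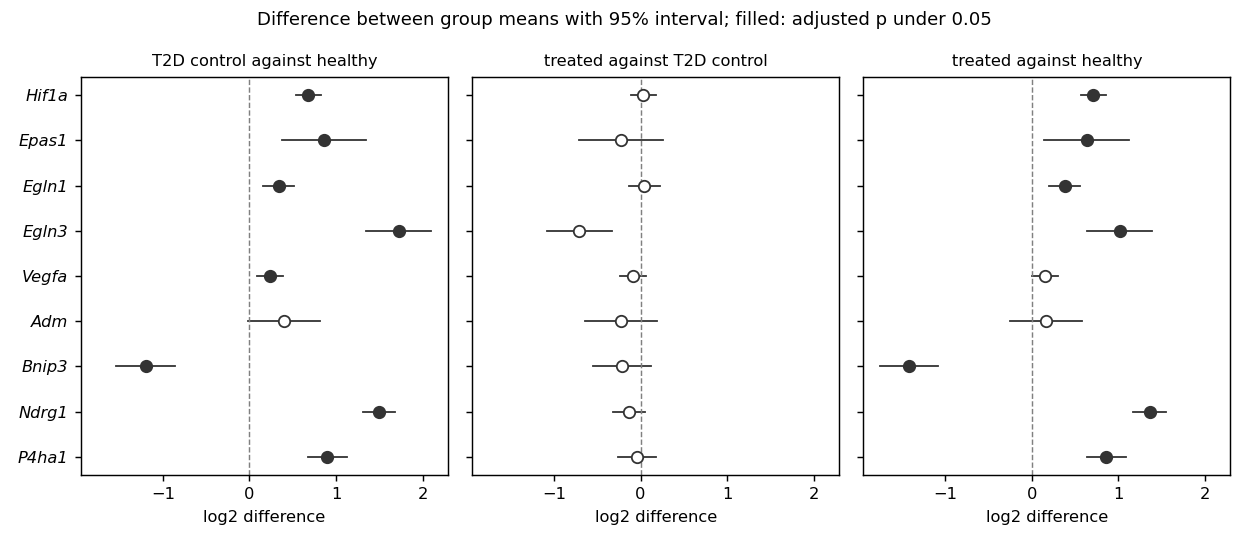
Log2 difference between group means (horizontal axis) for the 9 genes (vertical axis) in 3 comparisons, with points for the limma estimate and lines for its 95% interval over 9 arrays; filled points have an adjusted p under 0.05. In treated against T2D control all points are open, and only the interval of Egln3 (-1.09 to -0.33) leaves out 0.

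Against healthy control, treated livers had higher Hif1a, Epas1, Egln1, Egln3, Ndrg1 and P4ha1 and lower Bnip3, in a comparison that shares its healthy arrays with that of T2D control. Here 6 members rose and 1 fell, beside 11.1% of all clusters higher and 23.1% lower, and 30.5% and 23.7% among those with a mean of at least 5. The threshold of the methods was passed by Egln3 and Ndrg1 as higher (2.81% of clusters) and by Bnip3 as lower (0.819%), and pools did not overlap in 8 of 9 members and in 47.8% of clusters. Ndrg1 was higher by 1.36 log2 (SE 0.081), Egln3 by 1.02 (SE 0.16, adjusted p = 0.00276), P4ha1 by 0.86 (SE 0.097), Hif1a by 0.71 (SE 0.062), Epas1 by 0.64 (SE 0.21) and Egln1 by 0.38 (SE 0.078). Bnip3 differed by -1.42 (SE 0.15, 2.67-fold lower, adjusted p = 0.000383). The Epas1 call sat at the threshold (adjusted p = 0.0493), and was lost in 11 of the 17 alternatives, with 0.41 log2 and an adjusted p of 0.122 without healthy pool 8. Vegfa (0.15, adjusted p = 0.106) and Adm (0.17, adjusted p = 0.470) were not called, although Vegfa passed after median centring (0.28, adjusted p = 0.0445) and without healthy pool 9 (0.20, adjusted p = 0.0424).

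The other genes of the pathway, 93 measured genes in 7 lists, moved in both directions between T2D control and healthy control. Of them 35 rose and 16 fell, with a median of 0.08 log2, close to the 0.10 of all clusters with a mean of at least 5, and the share that rose is near the 35.0% of those clusters. The lists, like the members, were chosen with earlier results of these data known. Of the calls, 7 rises and 6 falls are of genes with a mean under 5, where the higher background probes of the healthy arrays bear on the difference to an extent that was not tested. Of 15 HIF subunits and regulators 3 rose and 5 fell, beside 35.0% and 24.2% of clusters with a mean of at least 5. Arnt, the partner of both alpha subunits, rose by 0.60 log2 (SE 0.081), and the coactivators Ep300 and Crebbp, named after their values were seen, rose by 1.03 (SE 0.22) and 0.90 (SE 0.26). Egln2, the third HIF prolyl hydroxylase, differed by -0.31 (SE 0.056), and Cul2 and Rbx1, parts of the VHL ubiquitin ligase, by -0.67 (SE 0.097) and -0.59 (SE 0.073), all 3 called lower.

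The glycolysis and glucose uptake list had the most rises. Of its 21 genes 12 rose and 1 fell, with a median of 0.32 log2, beside 35.0% and 24.2% of clusters with a mean of at least 5. The other 8 were not called, namely Slc2a3, Pfkfb4, Aldoc, Tpi1, Pgk1, Pgam1, Ldha and Slc16a3. Pkm, the pyruvate kinase gene that the adult liver keeps low, rose by 1.52 (SE 0.13), Gpi, which converts glucose 6-phosphate to fructose 6-phosphate, by 0.79 (SE 0.074), and Hk2, a hexokinase of muscle and growing cells, by 0.69 (SE 0.071). Pdk1, which blocks pyruvate dehydrogenase and is a classical HIF-1 target, fell by 0.88 (SE 0.087, adjusted p = 0.000302), with healthy pools at 7.20 to 7.30 and T2D control pools at 6.20 to 6.45. Pdk1 was the only gene of this list that fell.

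In the list of mitophagy and mitochondrial targets, 1 of 8 genes rose and 4 fell, beside 35.0% and 24.2% of clusters with a mean of at least 5. Becn1 (0.12, SE 0.045), Bcl2l13 (0.21, SE 0.077) and Cox4i2 (-0.17, SE 0.076) were not called. Fam162a (-0.32, SE 0.058), Pink1 (-0.37, SE 0.093), Fundc1 (-0.19, SE 0.056) and Higd1a (-0.43, SE 0.14) were called lower. Fundc1 has a mean of 4.41, where the background probes also fell between the groups. Bnip3, which is not in this list, fell as given above, while Bnip3l, the closest relative of Bnip3, rose by 0.24 (SE 0.062). Pink1 encodes the kinase that marks damaged mitochondria, and Fundc1 another receptor of mitophagy. In the family of Ndrg1, the other 3 genes had smaller differences than its 1.497. Ndrg3 rose by 0.27 (SE 0.068) and Ndrg2 was called lower at -0.60 (SE 0.073). Ndrg4 was called lower at -0.17 (SE 0.056), but its healthy mean of 3.62 is at the level of the background probes (3.52), which were 2.82 in T2D control, so this is no measure of the gene. Ndrg2 is the family member known for high expression in differentiated tissues.

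Among 10 collagen processing genes other than P4ha1, 5 rose and 1 fell, beside 35.0% and 24.2% of clusters with a mean of at least 5. Plod2, a lysyl hydroxylase of collagen and a HIF target, rose by 1.64 (SE 0.091, adjusted p = 3.4e-05), from healthy pools at 3.16 to 3.35 to T2D control pools at 4.73 to 5.05. The healthy values of Plod2 are not above the background probes of those arrays (3.35 to 3.72), so the size of this rise is not well measured. Its relative Plod1 rose by 0.73 (SE 0.059) and Crtap, a partner of prolyl 3-hydroxylase, by 0.93 (SE 0.11), while P4ha3, a sister of P4ha1, was called lower at -0.29 (SE 0.050), at a mean of 3.66 where the background probes also fell between the groups. Of 18 vascular ligands and receptors 6 rose and 2 fell, beside 35.0% and 24.2% of clusters with a mean of at least 5. The falls were Flt1 (-0.53, SE 0.15) and Vegfb (-0.32, SE 0.059). Nrp2 (1.22, SE 0.12) and Nrp1 (0.74, SE 0.12), coreceptors for VEGF, Calcrl (0.84, SE 0.082), the receptor subunit for adrenomedullin, and Tie1 (0.54, SE 0.066), an endothelial receptor, were among the rises. Of 18 other HIF targets 7 rose and 1 fell, beside the same shares of clusters. The fall was Epo (-0.41, SE 0.11), at a mean of 3.66 where the background probes also fell. Among the rises were Cxcr4 (1.70, SE 0.16), a chemokine receptor, and Hmox1 (1.22, SE 0.11), which degrades heme. Plin2 (1.21, SE 0.15), a coat protein of lipid droplets, and Bhlhe40 (1.42, SE 0.19), a clock-linked repressor, rose too.

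**Figure D3:**
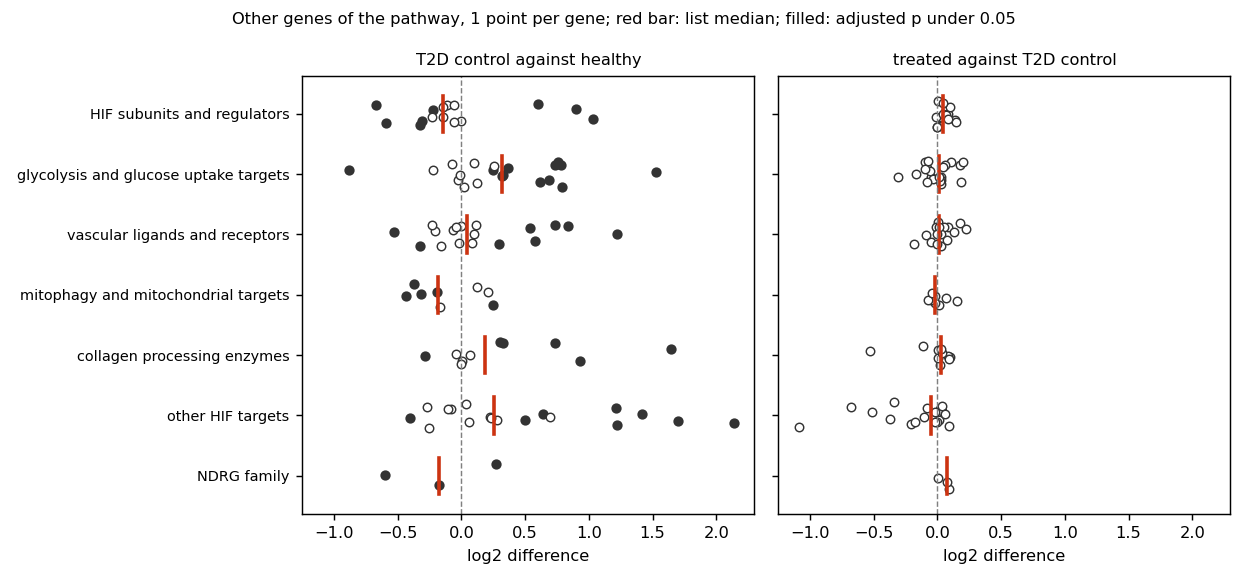
Log2 difference (horizontal axis) of the 93 other pathway genes, 1 point per gene, in 7 lists (vertical axis), for T2D control against healthy (left) and treated against T2D control (right), with red bars for list medians and filled points for an adjusted p under 0.05. On the left 35 genes rose and 16 fell, and on the right all points are open, with most near 0 and Igfbp1 lowest at -1.09.

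Several of these genes are made by cells other than hepatocytes, whose markers also differed. The marker counts stand beside 12.4% of all clusters higher and 22.6% lower in T2D control than in healthy control. Among clusters with a mean of at least 5 these shares were 35.0% and 24.2%. Of 11 markers of sinusoidal endothelium 10 rose and 0 fell in T2D control, and their mean log2 signal went from 6.23 to 6.51 in healthy to 7.10 to 7.15 in T2D control and 7.10 to 7.16 in treated pools, with healthy pool 8 lowest. That pool was also the lowest healthy pool in 5 of 9 members and in 49.1% of the 16024 clusters. Of 11 stellate cell and fibroblast markers 10 rose (5.96 to 6.00 against 6.99 to 7.10, and 6.75 to 7.04 in treated pools), and of 13 macrophage and Kupffer cell markers 9 rose (6.67 to 6.86 against 7.80 to 8.12, and 7.90 to 8.08 in treated pools). The macrophage and Kupffer list was uneven, with the largest rise in Gpnmb (4.80). Not called were Clec4f (-0.24), Vsig4 (-0.40), Marco (0.47) and C1qa (0.18). In treated against healthy control, limma called Clec4f lower (-0.57, adjusted p = 0.00728). Hepatocyte markers were 3 higher and 3 lower of 11. Of 6 cholangiocyte markers 1 rose and 1 fell, of 9 neutrophil and monocyte markers 3 rose, and of 4 erythrocyte markers 1 fell. Means under 5 were found in 0 of the endothelial, 1 of the stellate and 1 of the macrophage markers. They were found in 5 of 6 cholangiocyte, 6 of 9 neutrophil and monocyte and 3 of 4 erythrocyte markers. Few calls in those dim lists do not mean that the cells did not differ. The part of all these cell types in the rises of Epas1, Vegfa, P4ha1 and the pathway genes was not tested. Between treated and T2D control livers limma called 0 markers of these lists, with an unadjusted p under 0.05 in 1 hepatocyte, 1 macrophage, 3 stellate and 4 neutrophil and monocyte markers.

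None of the 93 pathway genes was called between treated and T2D control livers, beside 0.0668% of all clusters. An unadjusted p under 0.05 was reached by 6 of the 93, and by 5.13% of all clusters. The median of the 93 was 0.01 log2, beside -0.016 over clusters with a mean of at least 5. Plod2 gave 4.39, 4.34 and 4.41 in treated against 4.95, 5.05 and 4.73 in T2D control pools, a difference of -0.53 log2 (SE 0.091, adjusted p = 0.127). Bhlhe40 gave 7.74, 7.94 and 7.96 against 8.45, 8.58 and 8.67, a difference of -0.68 (SE 0.19, adjusted p = 0.468). Igfbp1, an insulin-repressed gene for a binding protein of insulin-like growth factors, gave 9.72, 9.05 and 9.65 against 10.15, 11.19 and 10.34, a difference of -1.09 (SE 0.29, adjusted p = 0.449). It was the only 1 of the 93 past the threshold of the methods, which 0.244% of all clusters passed. In these 3 genes, as in Egln3, the pools did not overlap and the treated level lay between healthy and T2D control. Of the 93 genes, treated and T2D control pools did not overlap in 10, with 6 higher and 4 lower in treated pools, beside 14.3% of all clusters. The values are descriptions of calls that fail the adjustment.

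The remaining 3 genes with an unadjusted p under 0.05 differed less. Ddit4, a stress-induced inhibitor of mTORC1, differed by -0.37 (SE 0.13) and Pfkfb3, which makes an activator of glycolysis, by -0.31 (SE 0.12), and in both the T2D control pool 4 lay at the treated level. Ddit4 in pool 4 was 5.13, the same as in treated pool 1, and Pfkfb3 in pool 4 was 4.94, the same as in treated pool 3. Hk2 differed by 0.17 (SE 0.071, adjusted p = 0.903), the only positive difference of the 6. With array weights Plod2 (-0.50, adjusted p = 0.0333) and Bhlhe40 (-0.68, adjusted p = 0.0219) passed, and without pool 4 1 gene passed, Car12 (-0.84, adjusted p = 0.0316), a carbonic anhydrase of low signal (mean 3.39) named after its values were seen.

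**Figure D4:**
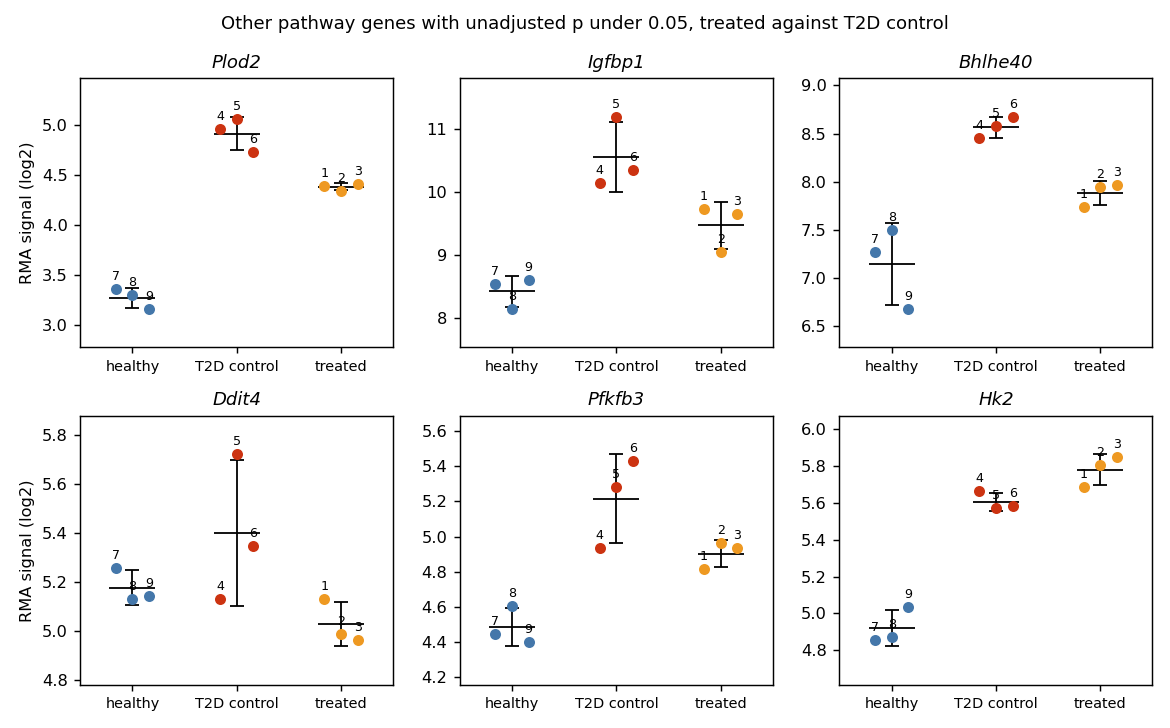
Log2 RMA signal (vertical axes, which differ in range) by group (horizontal axes) of the 6 pathway genes with an unadjusted p under 0.05 between treated and T2D control livers, with 1 point per pool, its number above it, and bars for the mean ± SD (n = 3). The pools of Plod2, Bhlhe40 and Igfbp1 separate the 3 groups, and in Ddit4 and Pfkfb3 pool 4 sits at the treated level.

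Over the 9 arrays the gene most like Hif1a was Smcr8 (Pearson r = 0.9965), followed by Tspan7 and Pan3, and the gene most like Epas1 was Ipo4 (r = 0.9874), followed by Lamc1 and Kpna3. The search covered 8945 clusters with 1 symbol and a mean of at least 5. For Hif1a 1035 of them had an r above 0.95 and for Epas1 123, since the arrays fall into a healthy and a T2D set and any gene that separates those sets evenly scores high, so these names carry no p and stand only as a description. Smcr8 had mean log2 signals of 4.83 in healthy, 6.22 in T2D control and 6.38 in treated pools, and Ipo4 of 6.04, 6.21 and 6.16.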

How the data were processed

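Liver RNA of 9 pools was hybridised to Clariom D Rat arrays. The authors summarised the scans by RMA in Transcriptome Analysis Console 4.0.2 and deposited 1 log2 signal per transcript cluster. The genome build of the clusters is not given in the sources used here. The median step of RMA can give several arrays 1 identical value, which can lower the spread of a group. Among 70580 entries, 1738 were control probe sets, which no test included, and 0 columns stayed unused. Symbols come from the platform annotation, where 23446 of 68842 clusters have exactly 1.

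Values entered the tests unchanged. The fit used limma 3.58.1 (lmFit, eBayes; R 4.3.3) over the 9 arrays with 6 residual degrees of freedom. Benjamini-Hochberg adjustment ran over the 68842 clusters, and called means an adjusted p under 0.05. For the shares among clusters with a mean of at least 5, those 16024 clusters were fitted alone and adjusted over them only. The threshold of the methods asks for an unadjusted p under 0.05 and more than 2-fold. Errors are limma SEs or SDs over 3 pools, and the number of pools limits the precision. No set test was run. On simulated data with 200 changed clusters, 99% to 100% of those shifted by 1.5 log2 were recovered. False calls numbered 10 to 15 per comparison. Recovery of shifts under 1.5 log2, which include every treatment difference of the members and pathway genes, was not tested.

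The members, the 7 pathway lists and the 7 marker lists were chosen with earlier results of these data known. Named are all 9 members, up to 4 genes per pathway list with the smallest p in T2D control against healthy, every pathway gene with an unadjusted p under 0.05 in treated against T2D control, and the 3 clusters most like Hif1a and Epas1. Further pathway genes, given for a fall, for no call or for their role, were named after their values were seen. Of 96 pathway genes 93 were found, and of 69 marker genes 65. A gene on several clusters stands by the one with the highest mean. Start regions were read from a RefSeq table of build GRCr8 and searched for both motifs on both strands. The 17 alternatives were a fit of the compared groups alone, quantile normalization, median centring, a mean of 5 or more, trended and robust eBayes, array weights, named clusters alone, averaging the clusters of a gene, and dropping each pool. Plots were made with matplotlib 3.10.9 (python 3.11.15).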

Additional observations from a re-analysis of the deposited data

How the results depend on the processing

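The count of called members held within 1.5 times of the reported one in all 17 alternatives, at 6 to 9 in T2D control against healthy, 6 to 8 in treated against healthy and 0 in treated against T2D control. No called difference changed its sign. The lost and gained calls of Epas1, Vegfa and Adm are given with those genes above. Of the pathway genes, 0 were called in treated against T2D control, 2 with array weights, and 0 to 1 when each pool was left out in turn; 51 (39 to 58 over the alternatives) were called in T2D control against healthy and 47 (36 to 54) in treated against healthy. The cause of these shifts was not tested. Without an adjusted call, Egln1 (without treated pool 2) and P4ha1 (after quantile normalization, without T2D control pool 5 and without treated pool 1) changed the sign of a treatment difference under 0.05 log2. Median centring moved the median of all clusters in T2D control against healthy from -0.12 log2 to -0.00047 log2 and raised the difference of Egln3, for example, from 1.72 to 1.84. Dim genes such as Adm, and Egln3 in healthy livers, are limited by background, and 3 pools per group do not resolve small treatment differences. No paired analysis was possible because the pools are numbered 1 to 9 across the groups and share no number.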
